A study of Mus musculus with 8 samples.

Results

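The genes described here are 50 genes of mitosis and the spindle, among 49997 genes counted by RNA-seq in EO771, a line of mouse breast cancer cells. They were taken as a fixed list of gene symbols, each matched to the same symbol in the count table, and all 50 were found. The rule used no measured value, but the list was chosen with earlier results of these data known. The list holds 10 kinases, cyclins and phosphatases of mitotic entry, 8 genes of the spindle checkpoint and anaphase, 7 of the centromere and kinetochore, 3 of the chromosomal passenger complex, 10 kinesins, 5 genes of spindle assembly and cytokinesis and 7 of chromosome structure. The data came from 8 libraries in 4 groups of 2. Cells received either 12-HETE at 100 nM, a lipid made by 12-lipoxygenase, or its vehicle, saline with 2% DMSO, for 48 h (replicates 4 and 5 of each). Other cells were transduced with empty vector or a vector for overexpression of ADAR1 p150 (replicates 1 and 2 of each). ADAR1 p150 is the interferon-inducible form of an RNA-editing enzyme. All groups share the EO771 background, and the study describes its comparisons of these treatments as independent experiments. The labels do not tie a library to a culture, so the p-values measure the spread between these libraries.

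Cells enter mitosis when the kinase Cdk1, bound to cyclin B, is freed from its inhibitory phosphates by Cdc25 phosphatases, and the Plk1 and Aurora kinases then build the spindle. Microtubules attach to kinetochores on the centromeres, and the spindle checkpoint holds back the anaphase-promoting complex until every chromosome is attached. Condensin and topoisomerase II compact the chromosomes, kinesins move them and the microtubules, and a central spindle and contractile ring divide the cell. Many of these genes are transcribed mainly in the G2 and M phases, so in dividing cultures their mRNA is a common readout of the dividing share. In bulk samples such as these, fewer cells in mitosis and less of a transcript per cell cannot be told apart.

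The total count was between 1101767 and 1537037 per library, and 1 gene, AY036118, took between 44.4% and 50.3% of it. The total was between 1353124 and 1537037 in the treated libraries and between 1101767 and 1201351 in the control libraries, without overlap. Raw counts given below are not scaled for this, while fold changes are. A count of 3 then stood for between 1.95 and 2.72 CPM (counts scaled to equal library totals). The Adar count was 181 and 140 in the ADAR1 p150 libraries and between 2 and 8 in the 6 others. Of the markers of mammary epithelium, Krt8 and Krt18 had between 42 and 150 counts in every library, Epcam at most 4 and Cdh1 was at 0 throughout.

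Mitosis genes were weakly covered. Their counts summed to between 915 and 1795 per library, and the mean count of a member over the 8 libraries ranged from 1.12 (Cenpa, the histone variant of centromeres) to 229 (Kif20a, a kinesin of cytokinesis), with a median of 11.5. Only genes whose mean count reached 10 were tested, which kept 28 of the 50 members (56%) against 13.8% of all genes. The minimum uses the mean over all groups, so a low gene that is high in 1 group can pass through that group. The other 22 were Ccnb2, Cdc25a, Cdc25c, Bub1, Mad2l1, Ttk, Espl1, Pttg1, Cenpa, Cenpc1, Ndc80, Nuf2, Spc25, Aurkb, Birc5, Kif2c, Kif14, Kif15, Kif18a, Kif20b, Ect2 and Ncaph. Their counts ran from 0 to 19, 13 of them reached 10 counts in at least 1 library, and 5 were at 0 in at least 1 library. Among them Bub1, a checkpoint kinase, had 1 and 2 counts in vehicle cells, 3 and 1 in 12-HETE cells, 0 and 1 in vector cells and 2 and 1 in ADAR1 p150 cells. Aurkb, the kinase of the chromosomal passenger complex, had 5 and 9, 14 and 10, 4 and 5, and 8 and 5 in the same order. Neither reached the minimum, and counts this low limit the changes that could be detected in them.

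Per kilobase of exon, the highest members were Aurka, at 45.3 normalized CPM per kilobase as the mean of the 8 libraries, and Kif20a, at 41.9. Ccna2, which encodes cyclin A2, followed at 18.5 and Ncapd2, a condensin I subunit, at 14.7, and every other member was at 7.84 or less. Kif20a and Aurka together made up between 25.3% and 32.7% of the members' summed normalized CPM in a library. Normalized CPM are CPM scaled by TMM, a method that assumes that most genes do not change between libraries.

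With 12-HETE, 3 members passed an adjusted p of 0.05 with at least a 2-fold change: the chromokinesin Kif4 and the spindle assembly factor Tpx2 were higher, and the phosphatase Cdc25b was lower. These 2 higher and 1 lower of 28 stand beside 6.12% higher and 8.25% lower among all 6901 genes tested. By adjusted p alone 7 members passed, 6 of them higher, against 29.3% of all genes. The other 4 were Aurka, Kif20a, Numa1 and Ncapd2, each higher by less than 2-fold. The remaining 21 had log2 fold changes between -0.75 and 0.81, and adjusted p between 0.0754 and 0.993. Over the 28, 17 log2 fold changes were above 0 and 11 below, with a median of 0.07 against 0.00 for all genes. In 12 of the 28, both 12-HETE libraries lay above both vehicle libraries, and in 3 both lay below, against 32.9% and 31.2% of all genes.

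With ADAR1 p150 overexpression, Kif4 was the 1 member called with a 2-fold change (1 higher and 0 lower of 28, against 8.11% higher and 4.69% lower of all genes tested). Mki67, which encodes Ki-67, a protein that coats mitotic chromosomes, and Ncapd2 passed by adjusted p alone, both higher, which made 3 of 28 against 25.6% of all genes. For the remaining 25, the log2 fold change was between -0.63 and 0.90 and the adjusted p between 0.102 and 0.948. Of the 28, 12 were above 0 and 16 below, with a median of -0.13 against 0.07 for all genes. The groups did not overlap in 15 members, 8 with the ADAR1 p150 libraries above and 7 with them below, against 33.7% and 26.3% of all genes. Kif4 and Ncapd2 passed in both contrasts, and the share of all genes that did so was not counted. The contrasts have no control library in common, but all libraries were fitted together. Kif4 reached the minimum only through its treated libraries.

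**Figure D1:**
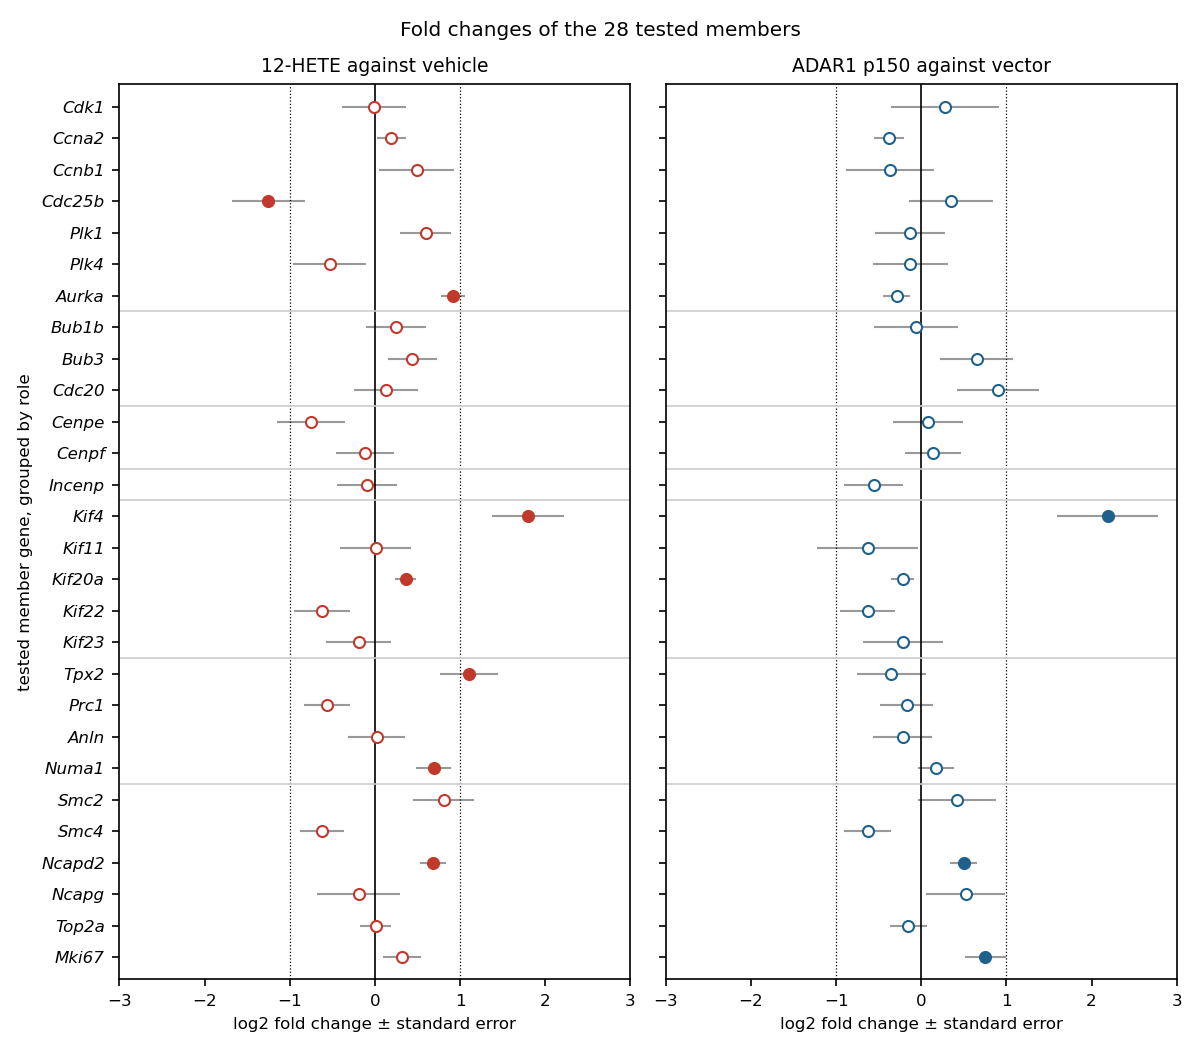
Log2 fold change (x axis, with its standard error as bars) of the 28 tested members, grouped by role from mitotic entry at the top to chromosome structure at the bottom, for 12-HETE against vehicle (left) and ADAR1 p150 against vector (right). Filled points have an adjusted p under 0.05 and dotted lines mark a 2-fold change: 7 points are filled on the left and 3 on the right, and Kif4, at 1.80 and 2.19, lies farthest to the right in both panels.

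DESeq2, run on the same counts as an alternative, called 0 of the 28 members in either contrast, against 8.55% of the 6901 genes with 12-HETE and 6.39% with ADAR1 p150. At an adjusted p of 0.05 alone it passed 2 members with 12-HETE, Aurka and Ncapd2, against 14.9% of all genes, and 0 with ADAR1 p150, against 11.7%. At an unadjusted p under 0.05 it passed 5 and 2 members, against 24.5% and 22.2% of all genes. Its fold changes were close to those of edgeR, for example 1.79 and 1.80 for Kif4 with 12-HETE, so the calls on Kif4, Tpx2 and Cdc25b rest on the choice of test.

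Aurka encodes Aurora A, the kinase that matures the centrosomes and is switched on by Tpx2. Its count was 104 and 117 in vehicle cells, 258 and 220 in 12-HETE cells, 100 and 134 in vector cells, and 120 and 114 in ADAR1 p150 cells. Both 12-HETE libraries were above every other library, also after scaling. In normalized CPM the level was 176 ± 11.0 with 12-HETE and 93.1 ± 5.68 with vehicle (SD, n = 2 libraries each), a log2 fold change of 0.92 (SE 0.14, adjusted p = 4.5e-06 by edgeR). Leaving out each library in turn gave between 0.86 and 0.98, and DESeq2 gave an adjusted p of 3.3e-04. With ADAR1 p150 the level was 85.3 ± 1.24 against 104 ± 18.2 with vector (SD, n = 2 libraries each), a log2 fold change of -0.29 (SE 0.16, adjusted p = 0.177 by edgeR). The 12-HETE effect exceeded the ADAR1 p150 effect by 1.21 on the log2 scale (SE 0.21, adjusted p = 1.0e-04 by edgeR, 0.00111 by DESeq2). Aurka was the 1 member called for this difference, in which 2.19% of all genes were higher and 6.14% lower.

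Tpx2 targets Aurora A to spindle microtubules. Its count was 13 and 14 in vehicle cells and 40 and 27 in 12-HETE cells, with no overlap, and 12 and 14 in vector cells and 15 and 10 in ADAR1 p150 cells. The log2 fold change was 1.11 with 12-HETE (SE 0.34, adjusted p = 0.0129 by edgeR) and -0.35 with ADAR1 p150 (SE 0.41, adjusted p = 0.597). Without vehicle replicate 4, vehicle replicate 5 or 12-HETE replicate 4 the 12-HETE change was 1.08, 1.07 and 0.86, with adjusted p of 0.0818, 0.0831 and 0.165, and DESeq2 gave 1.09 (adjusted p = 0.196). The difference between the effects was 1.46 (adjusted p = 0.065 by edgeR) and did not pass.

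Of the other tested regulators of entry, Cdc25b passed. It had 18 and 22 counts in vehicle cells, 7 and 12 in 12-HETE cells, 4 and 12 in vector cells and 12 and 13 in ADAR1 p150 cells. It was lower with 12-HETE by a log2 fold change of -1.25 (SE 0.43, adjusted p = 0.0264 by edgeR), and at 0.35 (SE 0.49, adjusted p = 0.669) with ADAR1 p150. The vehicle libraries stood above all 6 others. The call was lost without vehicle replicate 5 (-1.19, adjusted p = 0.109), without 12-HETE replicate 4 (-0.87, adjusted p = 0.249) and by DESeq2 (-1.28, adjusted p = 0.229). Cdk1, the mitotic kinase itself, had 14 and 16 counts in vehicle cells and 18 and 16 in 12-HETE cells, a log2 fold change of -0.01 (SE 0.38, adjusted p = 0.992 by edgeR). With vector it had 4 and 4 counts and with ADAR1 p150 8 and 4, a log2 fold change of 0.28 (SE 0.63, adjusted p = 0.80). Cyclin A2 (Ccna2) was well covered and did not pass, with 96 and 86, 122 and 115, 92 and 82, and 79 and 85 counts in vehicle, 12-HETE, vector and ADAR1 p150 libraries. Its log2 fold changes were 0.19 (adjusted p = 0.424) and -0.38 (adjusted p = 0.116), both by edgeR. Cyclin B1 (Ccnb1) had between 4 and 24 counts, with log2 fold changes of 0.49 (SE 0.44) and -0.37 (SE 0.52). Plk1 had 23 and 22 counts in vehicle cells and 46 and 32 in 12-HETE cells, which did not overlap, but its log2 fold change of 0.60 (SE 0.30, adjusted p = 0.142 by edgeR) did not pass. With ADAR1 p150 Plk1 had 13 and 15 counts against 10 and 15 in vector cells, a log2 fold change of -0.13. Plk4, the kinase of centriole duplication, was at -0.53 (SE 0.43) with 12-HETE and -0.13 (SE 0.44) with ADAR1 p150.

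**Figure D2:**
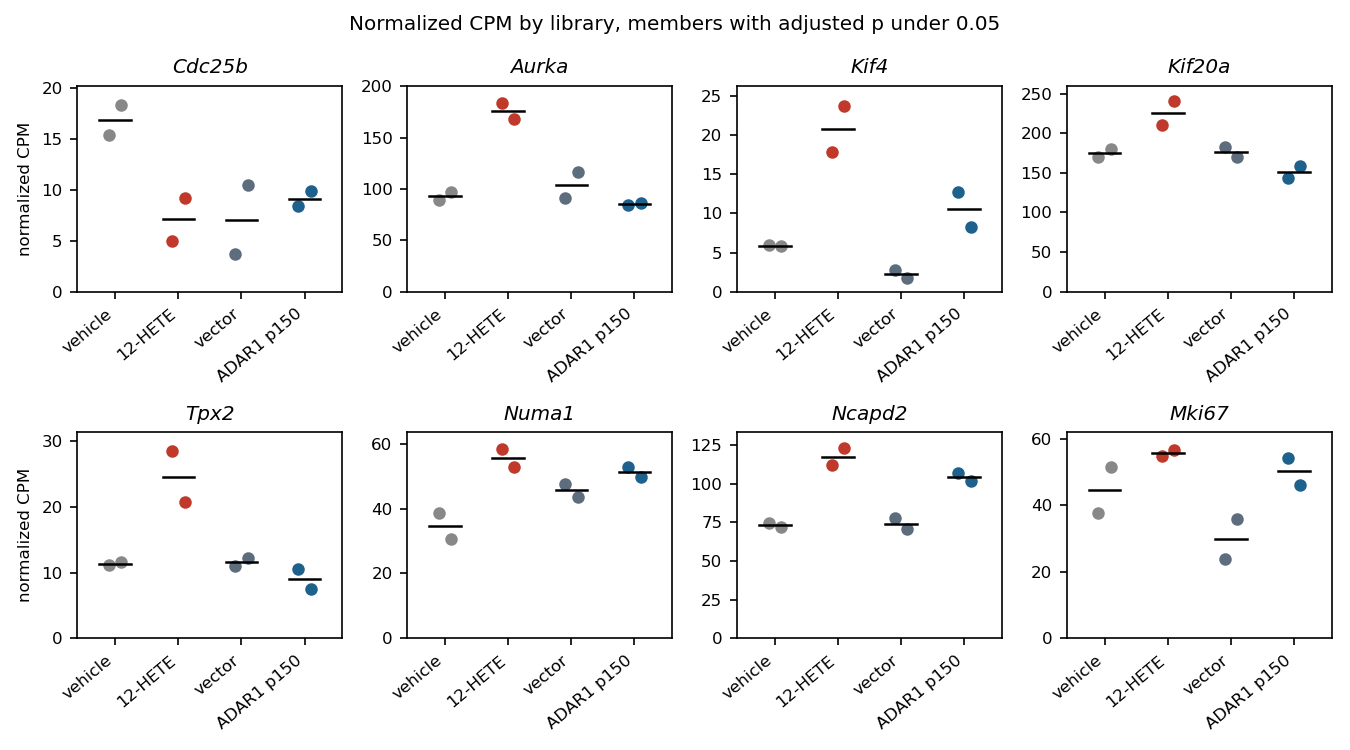
Normalized CPM (y axis, linear from 0) of the 8 members with an adjusted p under 0.05 in either contrast, 1 point per library and a line at the mean of each group of 2. The 12-HETE points of Aurka, Tpx2 and Kif4 lie above all other groups, Ncapd2 is raised in both treated groups, and the vehicle points of Cdc25b lie above the rest.

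Of the 8 members with an adjusted p under 0.05 in either contrast, 6 were found in the RefSeq promoter table of GRCm38.p6 and searched for 2 elements known from promoters of mitotic genes, because sets of such genes can share them. These were the CHR element (TTTGAA or TTTAAA) and the CCAAT box, on both strands, and the searches do not overlap. In the 250 bases before a start listed in that table, 5 of the 6 held CCAAT and 2 a CHR element. The matches in the last 100 bases are shown in windows of 30 bases on the strand of the gene, 5′ to 3′, with the matching letters in capitals (ATTGG is CCAAT on the other strand).
Aurka, chr2:172370604-172370633, minus strand: gtttacggtgagCCAATcacagaacggcat
Aurka, chr2:172370572-172370601, minus strand: ctccggctctagCCAATcagctcttggagt
Kif4, chrX:100626035-100626064, plus strand: cttctcacaggctgtacgcgctccgATTGG
Cdc25b, chr2:131186908-131186937, plus strand: accggcgcccccATTGGtggcgtctggcgg
Ncapd2, chr6:125191617-125191646, minus strand: agcctgccgcggATTGGccggttcctccgc
Mki67, chr7:135716460-135716489, minus strand: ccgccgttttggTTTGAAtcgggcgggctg
Aurka carried its 2 CCAAT letters 51 and 19 bases before the listed start. The windows of Aurka, Cdc25b and Ncapd2 lie inside the RefSeq positions of these genes, so the listed start is not the outer end of the gene. Those of Kif4 and Mki67 lie before the gene. Over all 43 members found in the table, 67.4% held CCAAT in the 250 bases, 53.5% a CHR element and 44.2% both, where 37.5%, 28.1% and 10.1% of 27025 genes did. Members that were not called, such as Cdk1, are among the 43, and no binding was measured.

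Among the 10 kinesins, 5 were tested. Kif4, on the X chromosome (plus strand, 100626065 to 100727271), had 7 and 7 counts in vehicle cells and 25 and 31 in 12-HETE cells, and 3 and 2 in vector cells and 18 and 11 in ADAR1 p150 cells. In both experiments the treated libraries lay above their controls without overlap. The log2 fold change was 1.80 with 12-HETE (SE 0.42, adjusted p = 0.00104 by edgeR) and 2.19 with ADAR1 p150 (SE 0.59, adjusted p = 0.00531). As summed counts, the ratio was 3.51 with 12-HETE (95% exact interval 1.93 to 6.83) and 4.75 with ADAR1 p150 (95% exact interval 1.82 to 15.7), where the vector libraries held 5 counts in all. These intervals cover counting error only. With ADAR1 p150 the call was lost without vector replicate 2 (1.91, adjusted p = 0.0688) or ADAR1 p150 replicate 1 (1.85, adjusted p = 0.066), and DESeq2 gave adjusted p of 0.057 and 0.0873 in the 2 contrasts. Kif4 reached the minimum through its treated libraries. On the X chromosome the median log2 fold change of the 93 genes tested was 0.47 with 12-HETE and 0.50 with ADAR1 p150, against 0.00 and 0.07 over all genes, and the part of this shift in Kif4 was not tested.

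Kif20a, needed for the central spindle, had 199 and 217 counts in vehicle cells and 294 and 314 in 12-HETE cells, and 199 and 195 in vector cells and 204 and 210 in ADAR1 p150 cells. After scaling, the 12-HETE libraries were the 2 highest of the 8. The log2 fold change was 0.36 with 12-HETE (SE 0.12, adjusted p = 0.0235 by edgeR) and -0.22 with ADAR1 p150 (SE 0.13, adjusted p = 0.217), a difference of 0.58 (adjusted p = 0.021) that made Kif20a the other of 2 members past the threshold for the difference by adjusted p alone, against 15.0% of all genes. The 12-HETE change no longer passed without vehicle replicate 4 (0.32, adjusted p = 0.137), vehicle replicate 5 (0.33, adjusted p = 0.171) or 12-HETE replicate 5 (0.26, adjusted p = 0.235). By DESeq2 it did not pass either (0.34, adjusted p = 0.212), nor did the difference (adjusted p = 0.0954). Kif22, a chromokinesin, had 36 and 26 counts in vehicle cells, 17 and 29 in 12-HETE cells, 35 and 32 in vector cells and 35 and 18 in ADAR1 p150 cells. Its log2 fold changes of -0.62 (SE 0.33, adjusted p = 0.168 by edgeR) and -0.63 (SE 0.32, adjusted p = 0.147) did not pass. Without ADAR1 p150 replicate 1 the latter was -1.13 (adjusted p = 0.0487). Kif11, the motor that separates spindle poles, was at 0.01 (SE 0.42) and -0.63 (SE 0.59), and Kif23 of the central spindle at -0.19 (SE 0.38) and -0.21 (SE 0.47).

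Of the 4 tested genes of spindle assembly and cytokinesis, Tpx2 and Numa1 passed with 12-HETE. Numa1, which anchors microtubules at the spindle poles, had 45 and 37 counts in vehicle cells, 82 and 69 in 12-HETE cells, 52 and 50 in vector cells and 75 and 66 in ADAR1 p150 cells. Its log2 fold change was 0.69 with 12-HETE (SE 0.21, adjusted p = 0.0133 by edgeR) and 0.17 with ADAR1 p150 (SE 0.21, adjusted p = 0.60). Without vehicle replicate 5 the 12-HETE change was 0.46 (adjusted p = 0.244), without 12-HETE replicate 4 it was 0.61 (adjusted p = 0.101), and by DESeq2 0.66 (adjusted p = 0.168). Prc1, which bundles microtubules of the central spindle, had 46 and 38 counts in vehicle cells and 34 and 31 in 12-HETE cells, a log2 fold change of -0.56 (SE 0.27, adjusted p = 0.115 by edgeR). In the other experiment it had 27 and 20 counts in vector cells and 24 and 27 in ADAR1 p150 cells, a log2 fold change of -0.17 (SE 0.31). Anln, an actin binder of the contractile ring, was at 0.02 (SE 0.33) and -0.22 (SE 0.35).

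Of the tested condensin I subunits, Ncapd2 passed in both contrasts. It had 87 and 87 counts in vehicle cells, 157 and 160 in 12-HETE cells, 85 and 81 in vector cells and 152 and 135 in ADAR1 p150 cells. Every treated library was above every control library. Its level was 117 ± 7.45 normalized CPM with 12-HETE against 73.3 ± 1.63 with vehicle, and 104 ± 3.45 with ADAR1 p150 against 74.2 ± 4.82 with vector (SD, n = 2 libraries each). The log2 fold changes were 0.68 (SE 0.15, adjusted p = 8.6e-04 by edgeR) and 0.50 (SE 0.16, adjusted p = 0.0174), and their difference of 0.18 did not pass (adjusted p = 0.658). The first held in DESeq2 (adjusted p = 0.0333) and the other did not (0.44, adjusted p = 0.241). The latter also did not pass without vector replicate 2 (0.43, adjusted p = 0.147) or ADAR1 p150 replicate 1 (0.46, adjusted p = 0.0765). Smc4, part of the condensin core, had 37 and 48, 29 and 34, 37 and 30, and 29 and 24 counts in vehicle, 12-HETE, vector and ADAR1 p150 libraries. Its log2 fold changes were -0.62 (SE 0.26, adjusted p = 0.0754 by edgeR) and -0.63 (SE 0.28, adjusted p = 0.102), so it did not pass, but with the 4 libraries of the contrast alone the 12-HETE change passed at -0.65 (adjusted p = 0.0495). Smc2, its partner in the core, was at 0.81 (SE 0.36, adjusted p = 0.092) and 0.42 (SE 0.46), and Ncapg at -0.19 (SE 0.49) and 0.52 (SE 0.46).

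Top2a and Mki67 are both used as markers of dividing cells. Top2a, a topoisomerase, had 84 and 90 counts in vehicle cells and 115 and 85 in 12-HETE cells, a log2 fold change of 0.01 (SE 0.18, adjusted p = 0.982 by edgeR). With vector it had 44 and 64 and with ADAR1 p150 66 and 53, a log2 fold change of -0.15 (SE 0.22, adjusted p = 0.67). Mki67 had 44 and 62 counts in vehicle cells, 77 and 74 in 12-HETE cells, 26 and 41 in vector cells and 77 and 61 in ADAR1 p150 cells. Its log2 fold change was 0.32 (SE 0.22, adjusted p = 0.278 by edgeR) with 12-HETE and 0.75 (SE 0.24, adjusted p = 0.018) with ADAR1 p150. The ADAR1 p150 libraries lay above the vector libraries and in the range of the other experiment. Without vector replicate 1 the change was 0.49 (adjusted p = 0.263), without ADAR1 p150 replicate 1 it was 0.62 (adjusted p = 0.123), without vector replicate 2 it was 1.08 and passed with a 2-fold change, and DESeq2 gave 0.69 (adjusted p = 0.195). The difference between the 2 effects on Mki67 was -0.43 (adjusted p = 0.425).

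The checkpoint genes that were tested, Bub1b, Bub3 and Cdc20, passed in neither contrast. With 12-HETE their log2 fold changes were 0.25 (SE 0.35), 0.44 (SE 0.29) and 0.13 (SE 0.38), and with ADAR1 p150 -0.06 (SE 0.49), 0.65 (SE 0.43) and 0.90 (SE 0.48). Of the kinetochore genes, Cenpe was at -0.75 (SE 0.40) and 0.08 (SE 0.41), and Cenpf at -0.12 (SE 0.34) and 0.14 (SE 0.33). Incenp, the scaffold of the chromosomal passenger complex, was at -0.09 (SE 0.35) and -0.56 (SE 0.35). The standard error was over 0.4 in 6 of the 28 members with 12-HETE and in 15 with ADAR1 p150, which limits the changes that could be detected in these.

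Summed over all 50 members, the normalized CPM was 989 and 1054 in vehicle cells and 1280 and 1270 in 12-HETE cells, and 835 and 914 in vector cells and 901 and 824 in ADAR1 p150 cells. The sums did not overlap between 12-HETE and vehicle and overlapped between ADAR1 p150 and vector. Without Kif20a and Aurka, the 2 members with the highest mean counts, the sums were 729 and 777 in vehicle cells and 886 and 862 in 12-HETE cells, and 562 and 627 in vector cells and 674 and 579 in ADAR1 p150 cells. By role, the sum for mitotic entry was 247 and 256 in vehicle cells and 367 and 335 in 12-HETE cells, and for the kinesins 250 and 268 against 299 and 344. Aurka and Kif20a carried much of these differences: without Aurka the entry sums were 158 and 159 against 182 and 166, and without Kif20a the kinesin sums were 79.6 and 87.9 against 89.2 and 103. In the other experiment, the entry sum was lower with ADAR1 p150 (191 and 195) than with vector (214 and 250). Without Aurka it was 106 and 109 against 122 and 133. The kinesin sum was lower too (222 and 212 against 246 and 230), but overlapped without Kif20a (78.8 and 52.9 against 64.9 and 59.5). That of chromosome structure was higher (255 and 228 against 190 and 209). Ncapd2 (107 and 102 against 77.6 and 70.8) and Mki67 (54.2 and 46.1 against 23.7 and 35.8) carried much of this difference. Of its 6 tested genes, 4 had log2 fold changes above 0 and 2 below. These full sums did not overlap between the groups and were not tested. Of the other roles with 12-HETE, the checkpoint and anaphase sum was 87.7 and 88.1 against 63.4 and 75.5 with vehicle. Chromosome structure summed to 301 and 302 against 240 and 261. Spindle assembly and cytokinesis summed to 137 and 122 against 120 and 103, and the passenger complex to 35.7 and 32.2 against 27.4 and 29. These also did not overlap and were not tested. The centromere and kinetochore genes summed to 42.0 and 61.4 with vehicle and 53.5 and 48.2 with 12-HETE, which overlapped.

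**Figure D3:**
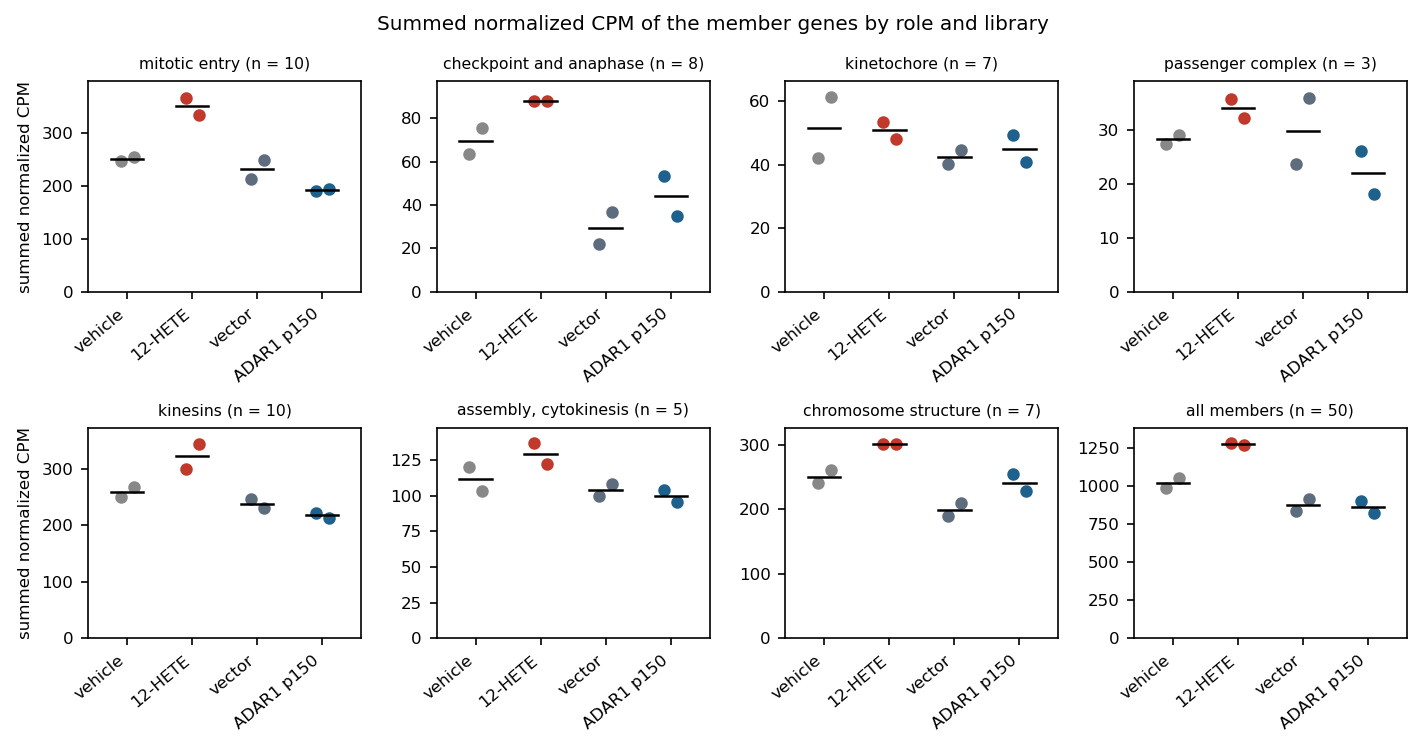
Summed normalized CPM (y axis, linear from 0) of the member genes in each role group and of all 50 members, 1 point per library and a line at the mean of each group of 2. The 12-HETE libraries lie above the vehicle libraries for all members (1270 to 1280 against 989 to 1054), while the vector and ADAR1 p150 libraries overlap and lie below both, and the sum of the checkpoint and anaphase genes is lowest in vector replicate 1 (21.9).

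The 2 control groups were compared to see how far the experiments could be set side by side. Of the 28 members, 0 were called between vector and vehicle by edgeR or DESeq2, against 0.0145% of all genes higher and 0.029% lower by edgeR. At an unadjusted p under 0.05 there were 9 members by edgeR, against 11.5% of all genes. By DESeq2 there were 2 members, against 232 of all 6901 genes. In 19 of the 28 (67.9%) the log2 fold change was below 0, against 51.0% of all genes, with a median of -0.37 against -0.01. Bub3, a checkpoint protein, had 8 and 8 counts in vector cells and 24 and 27 in vehicle cells (log2 fold change -1.58, SE 0.39, adjusted p = 0.0884 by edgeR). Cdk1 had 4 and 4 against 14 and 16 (log2 fold change -1.79, SE 0.52, adjusted p = 0.163). For both, the groups did not overlap. Vector transduction and the experiment itself cannot be told apart in this comparison.

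Several members share their position with a gene on the opposite strand, and the sources used here do not state whether strand was used in counting, so reads from positions that both genes cover cannot be told apart. There were 14 such members of the 50, in 17 pairs. The annotated exons overlapped in 7 pairs and did not overlap in 7, and in 3 a gene had no exons in the annotation used. In 10 of the 14 an opposite-strand gene had the higher mean count. Kif20a (mean count 229) lies in part opposite Cdc23, a subunit of the anaphase-promoting complex (2030), and Prc1 (30.9) opposite Rccd1 (1281). Kif4 (13.0) lies opposite the long non-coding RNA Gm52438 (259) over 62763 bases. Gm52438 had 171 and 176 counts in vehicle cells, 405 and 391 in 12-HETE cells, 172 and 200 in vector cells and 284 and 274 in ADAR1 p150 cells. It rose with 12-HETE (log2 fold change 1.01, SE 0.12, adjusted p = 2.1e-08 by edgeR) and was at 0.29 (SE 0.12, adjusted p = 0.071) with ADAR1 p150. Cdc23 rose with 12-HETE as well, from 1620 and 1531 to 3005 and 2903 counts (log2 fold change 0.72, SE 0.09, adjusted p = 2.3e-07), and with ADAR1 p150 it was at 0.06 (adjusted p = 0.725). Numa1 lies opposite Gm39061 (mean count 361), which was at -0.14 (adjusted p = 0.391 by edgeR) with 12-HETE, and Ccna2 overlaps Exosc9 (324), which fell with ADAR1 p150 (log2 fold change -0.59, adjusted p = 2.7e-04). Aurka (mean count 146) overlaps Cstf1, which had between 3 and 14 counts, over 242 bases that hold no shared exon. Of the 7 members past an adjusted p of 0.05 with 12-HETE, 4 have an opposite-strand gene (Aurka, Kif4, Kif20a and Numa1), and Tpx2, Cdc25b and Ncapd2 have none. Their part in the members' changes was not tested.

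**Figure D4:**
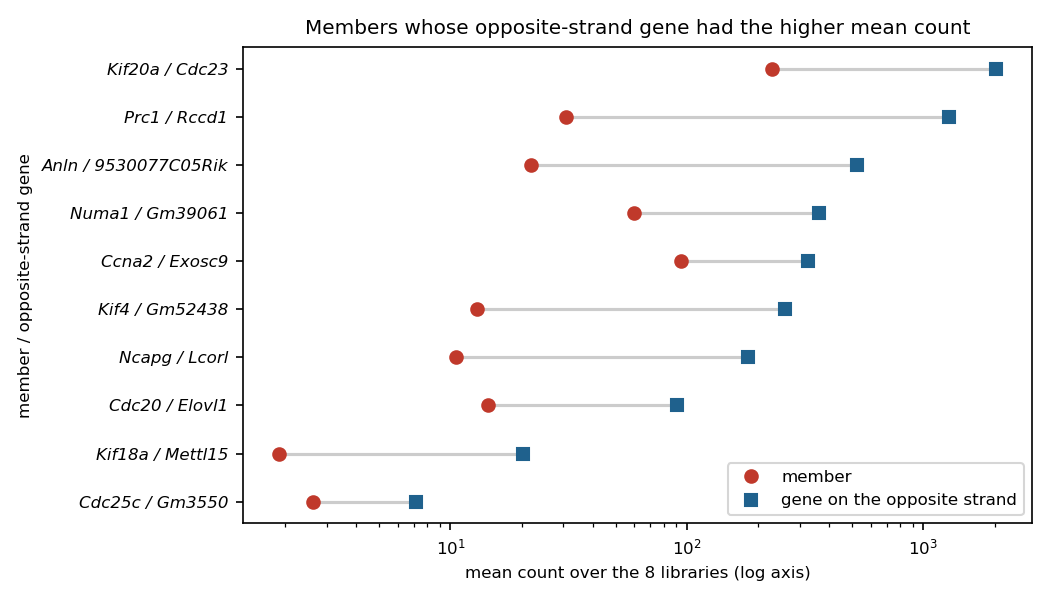
Mean count over the 8 libraries (x axis, log scale) of 10 members (circles) and of the gene on the opposite strand at the same position (squares), 1 pair per line. In each pair the square lies to the right, from Cdc25c (2.62 against 7.12) at the bottom to Kif20a (229 against 2030) at the top.

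Beyond the 50 members, 146 further genes of mitosis in 5 lists were measured, and 60 of them were tested. With 12-HETE 7 were called higher and 2 lower, against 6.12% and 8.25% of all genes, and with ADAR1 p150 2 higher and 1 lower, against 8.11% and 4.69%. By adjusted p alone these were 9 higher and 4 lower with 12-HETE, against 29.3% of all genes in either direction, and 2 higher and 6 lower with ADAR1 p150, against 25.6%. Of the 37 other kinetochore and centromere genes, 11 were tested and 3 were higher and 1 lower with 12-HETE. Cenpx, a DNA-binding kinetochore protein, went from 8 and 6 counts in vehicle cells to 87 and 91 in 12-HETE cells (log2 fold change 3.46, SE 0.32, adjusted p = 1.5e-10 by edgeR). It also rose with ADAR1 p150, from 5 and 13 counts in vector cells to 77 and 57 (log2 fold change 2.59, SE 0.32, adjusted p = 1.1e-07). Cenpx reached the minimum only through its treated libraries. Cenpo (1.22) and Cenpp (1.09) were the others that rose with 12-HETE and Cenpu fell (log2 fold change -1.20, adjusted p = 4.2e-08), from 188 and 198 counts to 107 and 85. Anapc11, a subunit of the anaphase-promoting complex, rose from 11 and 21 to 50 and 50 counts (log2 fold change 1.45, adjusted p = 5.3e-04), the 1 of 7 tested genes of its list that was called. Fam83d (1.30, DESeq2 adjusted p = 0.273) and Tacc3 (1.12, DESeq2 adjusted p = 0.361) were called among 15 tested spindle and centrosome genes. Both reached the minimum only through the 12-HETE libraries, with mean counts of 7.5 and 7.33 over the others. Cks1b, a binding partner of Cdk1, was higher (1.38) and the kinase Nek9 lower (-1.42) among 18 tested regulators of entry and exit. Cks1b had 1 and 12 counts in vehicle cells and 24 and 15 in 12-HETE cells (DESeq2 adjusted p = 0.259). With ADAR1 p150, Cit, the citron kinase of cytokinesis, rose (log2 fold change 1.01, adjusted p = 0.0137) and Foxm1, a transcription factor of G2/M genes, fell (log2 fold change -1.18, adjusted p = 0.0493, counts of 15 and 13 in vector cells and 7 and 8 in ADAR1 p150 cells). None of 9 tested genes of cohesin and condensin II was called in either contrast by edgeR, and DESeq2 called 0. By edgeR, 1 and 2 of them were at an unadjusted p under 0.05, against 2693 and 2528 of all 6901 genes. Below 2-fold, and named after their values were seen, the condensin II subunit Ncaph2 (log2 fold change -0.45, adjusted p = 0.00714 by edgeR and 0.0284 by DESeq2), the microtubule binder Nusap1 (-0.88, adjusted p = 1.4e-04 and 0.00256), and Tubgcp6 (-0.75, adjusted p = 3.0e-04 and 0.00536) and Tubgcp2 (-0.57, adjusted p = 0.00356 and 0.0329) of the gamma-tubulin complex were lower with ADAR1 p150. Tubgcp6 was also lower with 12-HETE (-0.85, adjusted p = 9.1e-05 and 0.00265). Nusap1 was lower with 12-HETE by edgeR but not by DESeq2 (-0.52, adjusted p = 0.014 and 0.122). Ncaph2 (0.21) and Tubgcp2 (-0.08) did not pass with 12-HETE. Cenpu was also lower with ADAR1 p150 by edgeR but not by DESeq2 (-0.45, adjusted p = 0.0106 and 0.0584). Over the 60, DESeq2 called 4 genes with 12-HETE, against 8.55% of all genes, and 1 with ADAR1 p150, against 6.39%. With 12-HETE these were Cenpx, Cenpu, Anapc11 and Nek9, and with ADAR1 p150 Cenpx. Cenpo and Cenpp did not pass with 12-HETE (DESeq2 adjusted p = 0.0672 and 0.293). Cit and Foxm1 did not pass with ADAR1 p150 (DESeq2 adjusted p = 0.205 and 0.211). Cenpo, Cenpp, Cenpu, Cit and Nusap1 are among those that also share a position with opposite-strand genes, Nusap1 in part with Oip5.

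For comparison with the preceding phase of the cycle, 40 genes of G1/S and DNA replication were taken, of which 21 were tested. With 12-HETE 4 were higher and 0 lower, against 6.12% and 8.25% of all genes, among them the ribonucleotide reductase subunit Rrm1 (log2 fold change 1.29) and the replicative helicase subunits Mcm3 (1.16) and Mcm2 (1.09). With ADAR1 p150 1 was higher, against 8.11% of all genes. It was the clamp loader subunit Rfc2 (1.47), which reached the minimum only through the ADAR1 p150 libraries, with a mean count of 9.33 over the others. DESeq2 called 1 of the 21 with 12-HETE, Rrm1, and 0 with ADAR1 p150, against 8.55% and 6.39%. The median log2 fold change of the 21 was 0.42 with 12-HETE and 0.19 with ADAR1 p150, where that of the 28 mitosis genes was 0.07 and -0.13. The difference between these lists was not tested.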

How the data were processed

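RNA-seq gene counts of 8 EO771 libraries were analysed. According to the methods, prinseq took out duplicate reads, STAR mapped the rest to GRCm38, and featureCounts counted them per gene. The methods name Trizol and a directional kit, and the labels a column kit and a different library kit. The authors deposited raw counts of 49997 genes without normalization. Genes whose mean count reached 10 were fitted together over all 8 libraries in edgeR 4.0.16 (TMM, quasi-likelihood test, Benjamini-Hochberg over 6901 genes). A gene was called when its adjusted p was under 0.05 and its change at least 2-fold. Alternatives were DESeq2 1.42.0, RLE factors, other count minima, a fit of 4 libraries, replicate blocks, thinning to the smallest total, leaving out AY036118 and leaving out each library. The procedure was tested on simulated data. Positions were from RefSeq GRCm38.p6, and strands were known for 88.8% of genes. Members with values in the text were those past an adjusted p of 0.05, the 10 with the highest mean counts, and fixed genes. The other tested members were added after their values were seen, so that every tested member is given. The members and lists were chosen with earlier results of these data known. The values of 1 gene of a comparison list are not reported here.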

Additional observations from a re-analysis of the deposited data

Results flagged for a closer look

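The effect of 12-HETE differed from that of ADAR1 p150 overexpression in 2 of the tested mitosis genes, by edgeR's test of the difference itself, against 15.0% of all genes at an adjusted p under 0.05. For Aurka the difference was 1.21 on the log2 scale, with both 12-HETE libraries above both vehicle libraries and both ADAR1 p150 libraries below both vector libraries after scaling. For Kif20a it was 0.58, which did not pass by DESeq2 (adjusted p = 0.0954), and Cdc23, on the opposite strand, had a difference of 0.66 in the same direction (adjusted p = 5.5e-04 by edgeR's quasi-likelihood test).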

How the results depend on the processing

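The call on 3 members with 12-HETE became 0 by DESeq2, 1 with at least 10 counts in every library and 7 by adjusted p alone, and between 1 and 3 without each library in turn (1 without vehicle replicate 5 or 12-HETE replicate 4). The 1 member with ADAR1 p150 became 0, 0 and 3 under the same settings and stayed at 1 without each library, although not the same member. For the difference between the effects, 1 became 2 with 10 counts in every library, with thinned counts, by adjusted p alone and without vector replicate 2 (range 1 to 2). Over all genes, DESeq2 called 590, 441, 254 and 0 genes in the 4 contrasts (12-HETE, ADAR1 p150, difference, vector against vehicle), adjusted p alone 2021, 1766, 1033 and 8, and 10 counts in every library 481 for 12-HETE, 429 for ADAR1 p150 and 0 between controls. Leaving out each library gave between 845 and 1010, 709 and 887, 460 and 544, and 2 and 22. Between controls, 3 genes became 6 with RLE factors, 11 with no minimum, 0 with thinned counts and 8 without AY036118. The members' median log2 fold change lay between -0.075 and 0.255 for 12-HETE without each library in turn. For ADAR1 p150 it lay between -0.23 and 0.17, where it was 0.17 without vector replicate 2 and 0.069 without ADAR1 p150 replicate 2. Same-numbered libraries deviated with correlations of -0.0798 and -0.114, so the numbers were not taken as pairs. With the replicate block 3 and 1 members and 942 and 813 genes were called. With the crossed block, chosen after seeing the data, between-control calls were 1 member and 64 genes. The causes were not tested. For the 16 tested members under the naming rule, 239 values kept their side of the adjusted p threshold without 1 library, 16 no longer passed and 1 newly passed, and over the other settings 227 kept it, 16 no longer passed and 4 newly passed. In these counts 22 of 50 members were under the minimum, and the cause of their low counts was not tested.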
